A study of Mus musculus with 6 samples.

Results

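The AMP-activated protein kinase (AMPK) subunit genes and the genes of its upstream kinase complex were followed in D10 T cells with and without cold acclimation. The 8 genes were taken by symbol from the deposited expression table: the catalytic α subunits Prkaa1 and Prkaa2, the scaffold β subunits Prkab1 and Prkab2, the nucleotide-binding γ subunits Prkag1 and Prkag2, the kinase LKB1 (Stk11) and its scaffold MO25α (Cab39). They are 8 of 41079 genes listed. Of these, 7 were above 0 in any library, and the same 7 were among the 12227 genes tested. They were chosen by name, with earlier results of these data known.

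AMPK is a heterotrimer of an α, a β and a γ subunit that senses the energy state of the cell. The γ subunit binds AMP, ADP and ATP, the β subunit holds the complex together, and the α subunit carries the kinase domain. In T cells the main activating inputs are LKB1, which works in a complex with STRAD and MO25, and the calcium-dependent kinase CaMKK2. Active AMPK is known to phosphorylate enzymes of lipid synthesis, regulators of mTORC1 and the autophagy kinase ULK1. These roles are carried by protein and phosphorylation, whereas the values here are transcript levels.

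D10 (D10.G4.1) is a single cloned mouse helper T cell line that recognises a conalbumin peptide, with a lymph node given as its tissue in the labels. Non-acclimated cells were cultured for 24 h at 37°C and cold-acclimated cells for 24 h at 26°C, with 3 independently prepared replicates each and no genetic change in either group. Poly(A)+ RNA from the 6 cultures was sequenced as strand-specific libraries. The labels mention old and new extraction batches without assigning any library to one. Levels are given as TPM, a transcript abundance for which reads are divided by gene length and each library is brought to a common total. The libraries held 16899174 to 31289938 reads on genes, as recovered from the spacing of the TPM values.

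The CD4+ T cell label was checked first. All 12 T cell markers were detected, with a summed level of 4872 to 6330 TPM at 37°C and 3887 to 5059 TPM at 26°C. One of them, the interleukin-2 receptor gene Il2ra, was at 1360 to 2026 TPM at 37°C and 217 to 327 TPM at 26°C. The defining gene Cd4, however, was at 1.09, 0.0351 and 310 TPM in non-acclimated replicates 1 to 3 and at 1.30, 0.352 and 328 TPM in cold-acclimated replicates 1 to 3, so it was near 0 in all but replicate 3. Of the T cell receptor α constant gene Trac, 15.0 and 12.8 TPM were present in the replicate 2 libraries, against 129 to 207 TPM in the other four, and Cd3d (64.3 and 78.6 TPM) and Cd28 (7.35 and 5.61 TPM) were lowest there too. B cell markers summed to 1.02 to 3.62 TPM, with Ms4a1 and Blnk at 0. Macrophage markers summed to 2.46 to 21.2 TPM, with Cd14 at 0 and the highest sums in replicate 3. The erythroid list reached 61.3 to 487 TPM almost wholly through Hba-a1, with Hbb-bs and Hbb-bt at 0. Replicate 3 (by Cd4) and replicate 2 (by Trac, Cd3d and Cd28) thus stood apart in both conditions. Values without the 2 libraries of replicate 3, or without single libraries, are given where a result rests on them. In bulk RNA, fewer cells of a type and less RNA per cell cannot be told apart.

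Of the 7 detected genes, Prkaa1 was the only one to pass the test in the unpaired fit to the TPM as deposited, and it fell. With the replicate number as a block in that fit, Prkab2 (higher, limma adjusted p = 0.017) and Prkag2 (lower, limma adjusted p = 0.021) passed too. Prkab2 and Cab39 were higher and Prkaa1 lower at 26°C without overlap between the conditions. Prkag2 and Stk11 were lower in 3 of 3 replicate pairs with overlapping ranges, and Prkab1 and Prkag1 had no common direction. The plot of TPM by library shows these patterns gene by gene. Tests were made with limma on log2(TPM + 1) over all 12227 tested genes, with Benjamini-Hochberg adjustment. Fold changes are on that log2 scale as 26°C minus 37°C, which understates changes of genes with low levels.

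**Figure D1:**
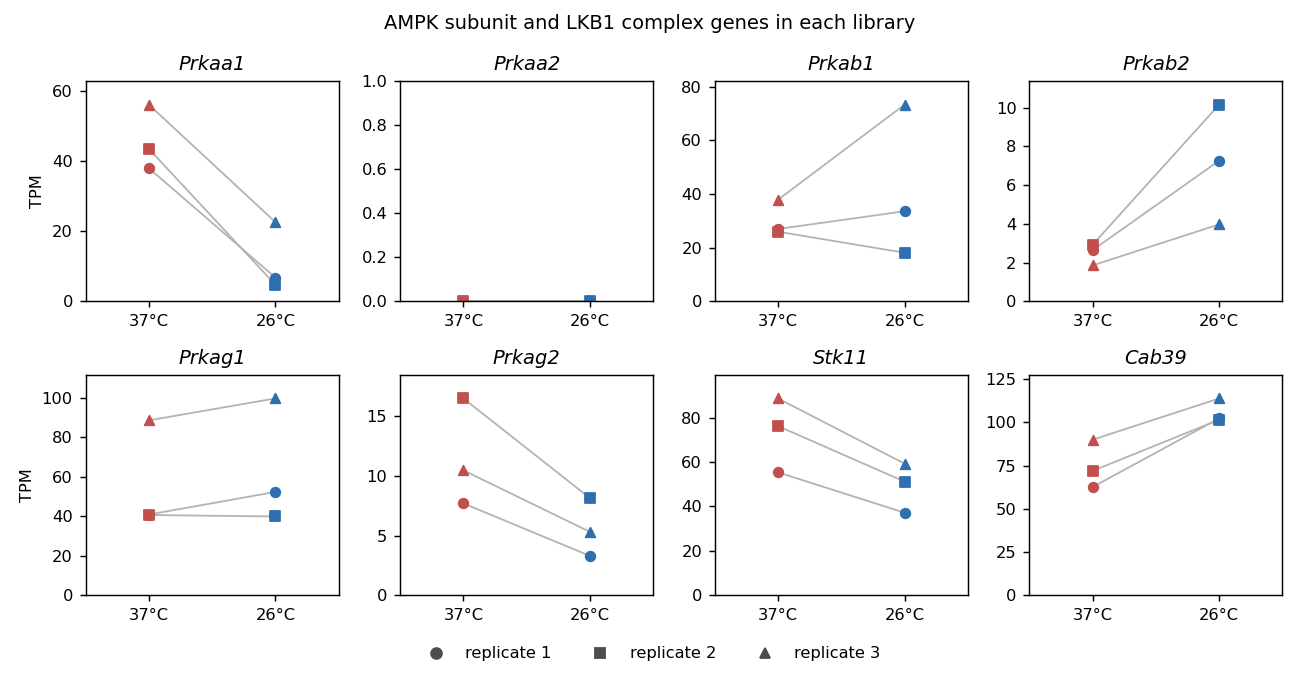
TPM (vertical axis, linear, from 0) of each of the 8 genes in the 3 libraries at 37°C (red) and the 3 at 26°C (blue), with a marker shape for each replicate number and a line joining libraries of the same number. Prkaa1 drops in each pair, from 38.1 to 56.2 TPM at 37°C to 4.73 to 22.6 TPM at 26°C, Prkab2 and Cab39 climb in each pair, and Prkaa2 lies at 0 in all 6 libraries.

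These counts stand against a broad shift over all genes. Of all tested genes, 404 (3.30%) were higher and 2123 (17.4%) lower with an adjusted p under 0.05, whereas 0 and 1 of the 7 AMPK and LKB1 genes were. When the log2 fold change also had to reach 1 in either direction, 321 genes (2.63%) were called higher and 1954 (16.0%) lower, again against 0 and 1 here. Levels did not overlap between conditions for 1185 genes (9.69%) in the higher and 3835 (31.4%) in the lower direction, against 2 and 1 of the 7. The median log2 fold change of the 7 genes was 0.16, that of all tested genes -0.34, a distance of 0.50. The median of the 7 is the value of Prkag1, whose standard error was 0.43 and whose direction changed when some single libraries were left out.

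The shift of the median depended on scaling. Under median-of-ratios scaling of the TPM, the median of all tested genes was 0.03, with 1056 genes (8.64%) higher and 1140 (9.32%) lower by adjusted p, and the split of genes called with both thresholds went from 321 higher and 1954 lower to 840 and 1052. With the replicate number as a block, 843 genes (6.89%) were higher and 3547 (29.0%) lower by adjusted p, against 1 and 2 of the 7. Fold changes are therefore also given relative to the median of all genes. This scaling divides each library by a common factor, so it moves all genes almost alike on the log2 scale. By construction the distance to the median then changes little, through the added 1 alone. The distance moved by less than the standard error for each of the 7 genes, which is no check of it.

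**Figure D2:**
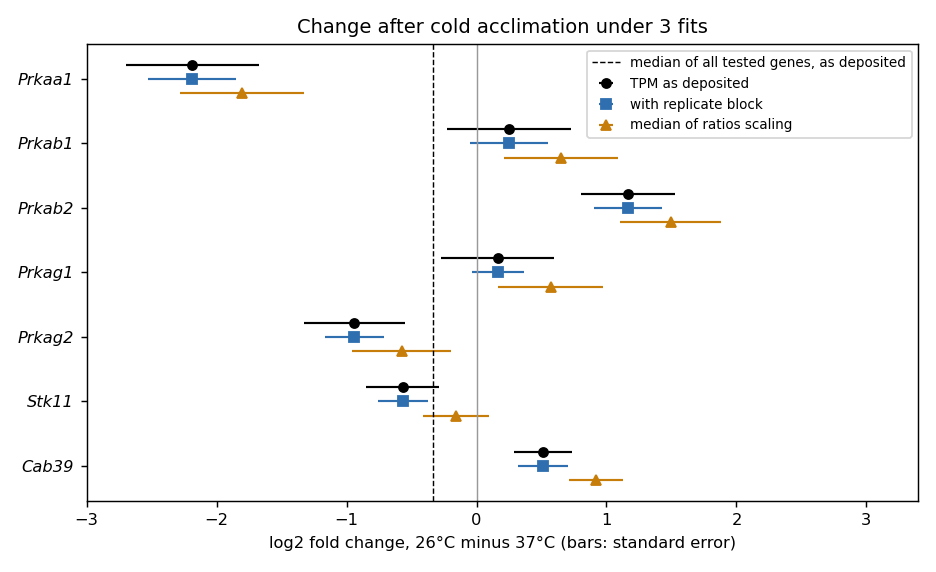
log2 fold change (horizontal axis, 26°C minus 37°C) of the 7 tested genes, with standard errors as bars, for the TPM as deposited (circles), with the replicate number as a block (squares) and after median-of-ratios scaling (triangles). The dashed line marks the median of all tested genes in the TPM as deposited, -0.34. Prkaa1 lies farthest to the left at -2.19 and Prkab2 farthest to the right at 1.17, and rescaling moves all 7 genes to the right.

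Prkaa1, the α1 catalytic subunit (ENSMUSG00000050697, GRCm39 chromosome 15, 5172641 to 5211380, plus strand), had 38.1, 43.6 and 56.2 TPM in non-acclimated replicates 1 to 3. In cold-acclimated replicates 1 to 3 it had 6.79, 4.73 and 22.6 TPM. Every cold-acclimated library lay below every non-acclimated one, and cold-acclimated replicate 3 retained the most. The mean fell from 45.9 ± 9.30 to 11.4 ± 9.79 TPM (SD, n = 3 each), a 4.04-fold difference, with a log2 fold change of -2.19 ± 0.51 (SE, limma, adjusted p = 0.025) and -1.85 relative to the median of all genes. The pairs differed by -2.33, -2.96 and -1.28 on the log2(TPM + 1) scale. Among tested genes ranked by mean level, Prkaa1 went from the 67.8th to the 41.2nd percentile.

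The recovered reads behind these levels were 1421, 1951 and 3683 at 37°C and 320, 232 and 1258 at 26°C, so counting error was small beside the spread between replicates. The call for Prkaa1 was lost when any library but cold-acclimated replicate 3 was left out. The log2 fold change was then -2.31, -2.21 and -2.04 without non-acclimated replicates 1, 2 and 3, with limma adjusted p of 0.070, 0.084 and 0.060. Without cold-acclimated replicates 1 and 2 it was -1.99 and -1.77, with adjusted p of 0.093 and 0.079. Without cold-acclimated replicate 3 the fold change was -2.79 with an adjusted p of 0.0025, and without replicate 3 of both conditions it was -2.64 with an adjusted p of 0.0037. It was also lost without the filter on low values (adjusted p = 0.067), where the fold change was the same and p was adjusted over 21195 genes. The antisense gene Gm15938, which accounts for most of the 3.62% of 50-base words in Prkaa1 exons that also occur on an opposite strand, had 2.61, 4.4 and 4.33 TPM at 37°C and 0.699, 0.682 and 2.45 TPM at 26°C. The libraries were strand-specific. Whether the counting used the strand is not given in the sources used here, so the share of reads that belongs to each gene of this pair was not tested.

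Prkaa2, the α2 catalytic subunit (ENSMUSG00000028518, GRCm39 chromosome 4, 104886846 to 104967095, minus strand), was at 0 TPM in all 6 libraries. A count of 0 allows up to 3 reads per library, in libraries of 16899174 reads or more, which covers counting error only. Prkaa2 was thus not detectable at this depth in either condition, and Prkaa1 made up all of the measured α transcript.

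Because subunits combine in one complex, the summed α level was set against the β and γ sums within each library, a ratio that no scaling between libraries can change. The α to β ratio was 1.29, 1.51 and 1.42 in non-acclimated replicates 1 to 3 and 0.166, 0.167 and 0.293 in cold-acclimated replicates 1 to 3. At 37°C α transcript exceeded β transcript in each library, and at 26°C it was the smaller in each. The α to γ ratio was 0.785, 0.764 and 0.568 at 37°C and 0.122, 0.0987 and 0.216 at 26°C, without overlap. The γ to β ratio, in contrast, was 1.64, 1.98 and 2.49 at 37°C and 1.36, 1.70 and 1.36 at 26°C, lower in each pair but overlapping. Both ratios with γ are uncertain if the counting did not use the strand, because Prkag1 and Prkag2 share words with opposite-strand genes. An exact permutation test of 3 against 3 cannot go below p = 0.10, so these ratios are given as values.

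Prkab1, the β1 scaffold (ENSMUSG00000029513, GRCm39 chromosome 5, 116151654 to 116162449, minus strand), had 26.9, 25.9 and 37.8 TPM in non-acclimated replicates 1 to 3. Cold-acclimated replicates 1 to 3 had 33.6, 18.1 and 73.3 TPM, so the cold-acclimated range enclosed the non-acclimated one. The level was higher in 2 of 3 pairs, with a log2 fold change of 0.25 ± 0.47 (SE, limma, adjusted p = 0.75). Replicate 3 set the direction: the fold change was -0.26 without cold-acclimated replicate 3 and -0.10 without replicate 3 of both conditions.

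Prkab2, the β2 scaffold (ENSMUSG00000038205, GRCm39 chromosome 3, 97565527 to 97581128, plus strand), was the least abundant detected subunit at 37°C, with 2.64, 2.92 and 1.85 TPM. In cold-acclimated replicates 1 to 3 it had 7.27, 10.2 and 3.98 TPM. The conditions did not overlap, and the replicate 3 libraries were the lowest within each condition. Means were 2.47 ± 0.554 and 7.13 ± 3.09 TPM (SD, n = 3 each), a ratio of 2.89, with pair differences of 1.18, 1.51 and 0.80 on the log2(TPM + 1) scale. The log2 fold change was 1.17 ± 0.36 (SE), or 1.5 relative to the median of all genes, and the limma adjusted p of 0.057 missed the threshold. It passed with the replicate number as a block (adjusted p = 0.017), under median-of-ratios scaling (1.49 ± 0.39, adjusted p = 0.039), with voom on the recovered reads (1.86, adjusted p = 0.039) and without cold-acclimated replicate 3 (1.48, adjusted p = 0.016). Prkab2 missed the threshold when any other single library was left out (limma adjusted p up to 0.18) and without the filter on low values (adjusted p = 0.13). The reads recovered were 95, 126 and 117 at 37°C and 330, 480 and 213 at 26°C.

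Prkab2 made up 8.92, 10.1 and 4.67% of the summed β transcript in non-acclimated replicates 1 to 3 and 17.8, 36.0 and 5.15% in cold-acclimated replicates 1 to 3. The share was higher at 26°C in each pair, by little in replicate 3, and cold-acclimated replicate 3 lay below 2 of the non-acclimated libraries. Prkab1 thus remained the larger β transcript in all 6 libraries by TPM. The β sum itself was 29.6, 28.9 and 39.7 TPM at 37°C and 40.8, 28.3 and 77.3 TPM at 26°C, with overlap.

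**Figure D3:**
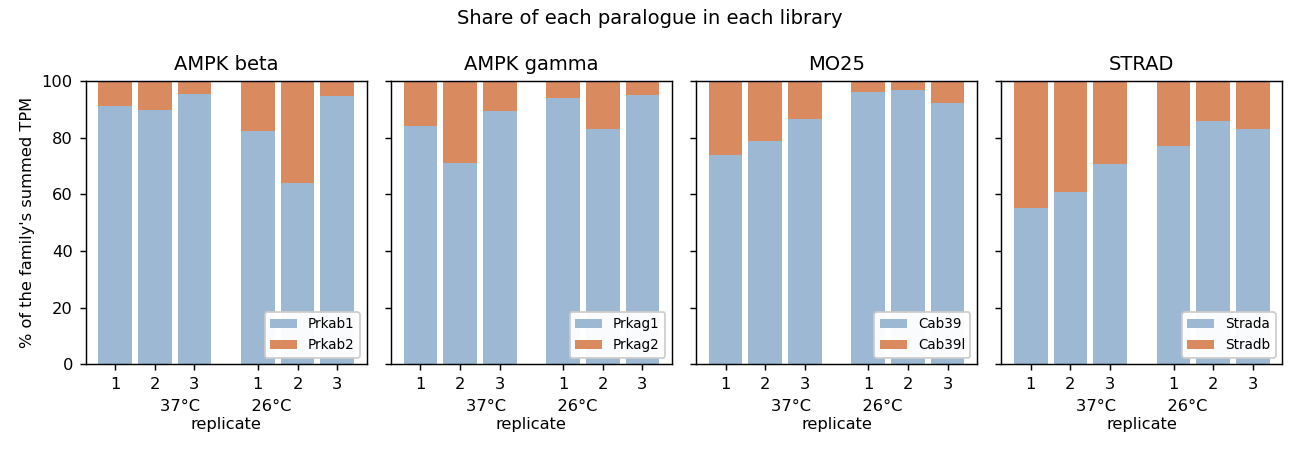
Share of each paralogue (vertical axis, % of the summed TPM of its family) in each library, for AMPK β, AMPK γ, MO25 and STRAD, with the 3 non-acclimated libraries on the left and the 3 cold-acclimated ones on the right of each panel. The blue Cab39 and Strada shares are higher in every library at 26°C than in any at 37°C, whereas the β and γ shares overlap between the conditions.

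Prkag1, the γ1 nucleotide sensor (ENSMUSG00000067713, GRCm39 chromosome 15, 98710678 to 98729354, minus strand), had 40.8, 40.6 and 88.5 TPM at 37°C and 52.2, 39.8 and 99.6 TPM at 26°C in replicates 1 to 3. Both replicate 3 libraries lay above all of the other four, which were between 39.8 and 52.2 TPM, and the conditions overlapped. The log2 fold change was 0.16 ± 0.43 (SE, limma, adjusted p = 0.82) and turned to -0.02 when non-acclimated replicate 1 or 2 was left out, and to -0.21 for cold-acclimated replicate 3. Without replicate 3 of both conditions it was 0.16 again. Of the 50-base words in Prkag1 exons, 28.4% also occur on the opposite strand of other genes, mostly B130046B21Rik, so its reads are uncertain if strand was not used.

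Prkag2, the γ2 nucleotide sensor (ENSMUSG00000028944, GRCm39 chromosome 5, 25067733 to 25311576, minus strand), had 7.70, 16.5 and 10.5 TPM in non-acclimated replicates 1 to 3. In cold-acclimated replicates 1 to 3 it had 3.29, 8.14 and 5.31 TPM. It was lower at 26°C in 3 of 3 pairs, by -1.02, -0.94 and -0.86 on the log2(TPM + 1) scale, while cold-acclimated replicate 2 lay above non-acclimated replicate 1. The log2 fold change was -0.94 ± 0.39 (SE), -0.60 relative to the median of all genes, with a limma adjusted p of 0.12. With the replicate number as a block the adjusted p was 0.021, and under median-of-ratios scaling with the same block the fold change was -0.58 and the adjusted p 0.081. Its exons share 15.6% of their 50-base words with opposite-strand genes, among them Prkag2os1 and Prkag2os2, with the same uncertainty.

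Prkag2 supplied 15.9, 28.9 and 10.6% of the summed γ transcript at 37°C and 5.93, 17.0 and 5.06% at 26°C, a lower share in each pair. Counted in reads, which favour the longer Prkag2, its mean share was 56.1% at 37°C and 36.4% at 26°C, against 18.5 and 9.32% by TPM. The third γ subunit gene, Prkag3, was at 0 TPM in all 6 libraries. The γ sum was 48.5, 57.1 and 98.9 TPM at 37°C and 55.5, 47.9 and 105 TPM at 26°C, so its replicate 3 values were the highest in both conditions.

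Stk11, which encodes LKB1 (ENSMUSG00000003068, GRCm39 chromosome 10, 79951602 to 79966513, plus strand), had 55.3, 76.2 and 88.6 TPM in non-acclimated replicates 1 to 3. Cold-acclimated replicates 1 to 3 had 37.1, 51.1 and 59.2 TPM. The pair differences were nearly equal, at -0.56, -0.57 and -0.57 on the log2(TPM + 1) scale, although cold-acclimated replicate 3 lay above non-acclimated replicate 1. The log2 fold change was -0.57 ± 0.28 (SE, limma, adjusted p = 0.18), or -0.23 relative to the median of all genes, and it was -0.16 under median-of-ratios scaling. With the replicate number as a block the limma adjusted p was 0.056, and with that block and median-of-ratios scaling together it was 0.50. Stk11 overlaps Cbarp on the opposite strand, which had 3.61 to 4.54 TPM at 37°C and 1.30 to 2.41 TPM at 26°C.

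Cab39, which encodes the scaffold MO25α that holds LKB1 in its active form (ENSMUSG00000036707, GRCm39 chromosome 1, 85707796 to 85779298, plus strand), had 62.6, 71.9 and 89.9 TPM in non-acclimated replicates 1 to 3. In cold-acclimated replicates 1 to 3 it had 102, 102 and 114 TPM, all above the non-acclimated range. Means were 74.8 ± 13.9 and 106 ± 6.91 TPM (SD, n = 3 each), a ratio of 1.42. The log2 fold change was 0.51 ± 0.22 (SE, limma, adjusted p = 0.14), or 0.85 relative to the median of all genes. Under median-of-ratios scaling it was 0.92 ± 0.21 with an adjusted p of 0.028, and voom on the recovered reads gave 0.93 with an adjusted p of 0.027, so the call for Cab39 depended on the scaling.

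Among the paralogues that complete the LKB1 complex, Cab39l and Stradb fell. Cab39l, which encodes MO25β, fell from 22.1, 19.4 and 13.8 TPM at 37°C to 4.18, 3.22 and 9.54 TPM at 26°C, with a log2 fold change of -1.64 ± 0.39 (SE, limma, adjusted p = 0.027). Its adjusted p was 0.052 under median-of-ratios scaling. Cab39 accordingly made up 73.9, 78.7 and 86.7% of MO25 transcript in non-acclimated replicates 1 to 3 and 96.1, 96.9 and 92.3% in cold-acclimated replicates 1 to 3, without overlap. Stradb, which encodes the pseudokinase STRADβ, fell from 32.4, 21.8 and 12.9 TPM to 5.03, 2.49 and 5.55 TPM (log2 fold change -2.09 ± 0.40, limma adjusted p = 0.016). The share of Strada in STRAD transcript was 55.0, 60.9 and 70.6% at 37°C and 76.9, 86.0 and 83.1% at 26°C, again without overlap. The level of Strada itself was not higher at 26°C. Its log2 fold change was -0.82 ± 0.28 (SE, limma, adjusted p = 0.075), and -0.43 under median-of-ratios scaling. The sum of both STRAD genes was 71.9, 55.9 and 43.8 TPM at 37°C and 21.8, 17.8 and 32.8 TPM at 26°C.

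In non-acclimated cells the mean levels ran in the order Cab39 (74.8 TPM), Stk11 (73.3), Prkag1 (56.6), Prkaa1 (45.9), Prkab1 (30.2), Prkag2 (11.6), Prkab2 (2.47) and Prkaa2 (0). The ranges over libraries overlapped between neighbours from Cab39 to Prkaa1, and from Prkaa1 downwards no neighbours overlapped. In cold-acclimated cells the order was Cab39 (106 TPM), Prkag1 (63.9), Stk11 (49.2), Prkab1 (41.6), Prkaa1 (11.4), Prkab2 (7.13), Prkag2 (5.58) and Prkaa2 (0). There, Cab39 lay above Prkag1 in all libraries and Prkag2 above Prkaa2, while the other neighbours overlapped. TPM is per gene length, so these levels can be set side by side, with the lengths being those of the authors' counting.

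The genes most like Prkaa1 over the 6 libraries, by the root mean square difference of gene-centred log2(TPM + 1) values, were Inpp5b, Hells and Ldah, at 0.10, 0.11 and 0.11. They are annotated by name as an inositol polyphosphate phosphatase, a lymphoid-specific helicase and a lipid droplet hydrolase. Like Prkaa1, Hells was lowest in cold-acclimated replicate 2 at 4.15 TPM and reached 25.6 TPM in cold-acclimated replicate 3. Closest to Stk11 were 5031439G07Rik, Znhit1 and Ahsa2, at 0.07, 0.08 and 0.08. Likeness over 6 libraries that share 2 conditions and 3 replicate numbers is a description only.

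The wider pathway was read from 91 genes listed by role, of which 69 were tested, 2 rose and 16 fell, and the plot of fold changes by list gives all of them. Rose and fell here mean an adjusted p under 0.05. Over all tested genes, 3.30% rose and 17.4% fell in this sense, with a median log2 fold change of -0.34. Among 6 LKB1 partners and other upstream kinases, 0 rose and 2 fell (Stradb and Cab39l), with a median log2 fold change of -0.65. Camkk2, the calcium-dependent upstream kinase, had 8.63, 10.9 and 19.3 TPM at 37°C and 10, 8.58 and 7.2 TPM at 26°C (limma adjusted p = 0.34), overlapping between the conditions.

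Of 12 regulators that bind AMPK or its complex, 11 were tested, 1 rose and 2 fell, with a median of 0.27. Axin1, a scaffold that brings LKB1 to AMPK at the lysosome, rose from 50.5, 61.5 and 77.4 TPM to 109, 130 and 127 TPM (log2 fold change 0.96 ± 0.24, limma adjusted p = 0.031). Flcn, which encodes the AMPK-binding protein folliculin, fell from 10.8, 11.4 and 16.0 TPM to 5.35, 3.89 and 4.63 TPM (log2 fold change -1.28, adjusted p = 0.020), with -0.91 and an adjusted p of 0.055 under median-of-ratios scaling. Fbxo48, an F-box gene, fell by 1.71 on the log2 scale (adjusted p = 0.023).

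Of 12 AMPK-related kinases that LKB1 activates, 7 were tested, 1 rose and 2 fell, with a median of -0.17. The salt-inducible kinase Sik1 rose from 3.27, 1.42 and 4.2 TPM to 12.5, 15.0 and 6.50 TPM (log2 fold change 1.64 ± 0.41, limma adjusted p = 0.032). Snrk, an SNF1-related kinase, fell from 7.44, 14.1 and 7.15 TPM to 0.706, 0.666 and 1.25 TPM, with a log2 fold change of -2.45 ± 0.34 and an adjusted p of 0.0075. Mark2 fell by 0.96 with an adjusted p of 0.050, at the edge of the threshold, and its adjusted p was 0.17 under median-of-ratios scaling.

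Of 27 genes for AMPK substrates, 26 were tested, 0 rose and 7 fell, with a median of -0.76. Acaca, the acetyl-CoA carboxylase of fatty acid synthesis, fell from 30, 41.0 and 34.1 TPM to 21.8, 19.0 and 16.7 TPM (log2 fold change -0.83 ± 0.24, limma adjusted p = 0.045). Under median-of-ratios scaling it was -0.44 with an adjusted p of 0.23, and it passed in 0 of the 6 fits that left out 1 library. Ulk1, which starts autophagy, fell from 18.8, 17.0 and 17.8 TPM to 4.34, 5.70 and 9.03 TPM (log2 fold change -1.41 ± 0.30, adjusted p = 0.019). Rptor, the mTORC1 subunit, fell by 1.00 on the log2 scale (adjusted p = 0.035), with -0.61 and an adjusted p of 0.14 under median-of-ratios scaling. Gys1, muscle-type glycogen synthase, fell from 39.4, 45.8 and 42.2 TPM to 4.74, 2.87 and 15.2 TPM, and Gbf1, a Golgi exchange factor, from 38.7, 30.5 and 29.0 TPM to 6.83, 5.78 and 10.1 TPM. Their log2 fold changes were -2.61 ± 0.50 and -2.0 ± 0.28, with adjusted p of 0.015 and 0.0075.

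Of the other substrates, Txnip, Tsc2 and Acacb did not pass. Txnip, the thioredoxin-interacting protein gene, had 238, 190 and 89.0 TPM at 37°C and 282, 660 and 369 TPM at 26°C, without overlap (log2 fold change 1.36 ± 0.45, limma adjusted p = 0.068). It passed under median-of-ratios scaling (adjusted p = 0.039) and with the replicate block (adjusted p = 0.027). Txnip passed in 0 of the 6 fits that left out 1 library, and its adjusted p was 0.12 without replicate 3 of both conditions. Tsc2, an inhibitor of mTORC1, had a log2 fold change of -0.92 and a limma adjusted p of 0.092. That p was 0.027 with the replicate block and 0.017 without replicate 3 of both conditions. Under median-of-ratios scaling the fold change of Tsc2 was -0.52 and the adjusted p 0.25. Acacb, the mitochondrial acetyl-CoA carboxylase, was at 3.22, 3.80 and 2.1 TPM against 1.00, 1.18 and 1.91 TPM. Its log2 fold change was -0.77 with a limma adjusted p of 0.12, and of 0.030 without replicate 3 of both conditions. Under median-of-ratios scaling the fold change of Acacb was -0.50 and the adjusted p 0.27.

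Of 13 genes of mitochondrial biogenesis and fatty acid import, 9 were tested, 0 rose and 2 fell, with a median of -0.10. Cpt2, the inner-membrane carnitine palmitoyltransferase, fell from 55.0, 56.3 and 31.7 TPM to 4.62, 2.03 and 6.46 TPM (log2 fold change -3.23 ± 0.40, limma adjusted p = 0.0070). Cpt1a, its outer-membrane partner, was at 72.5, 57.7 and 64.8 TPM at 37°C and 47.3, 45.0 and 47.3 TPM at 26°C, without overlap but with an adjusted p of 0.14. The log2 fold change of Cpt1a was -0.47, or -0.13 relative to the median of all genes. Under median-of-ratios scaling it was -0.06 with a limma adjusted p of 0.86. The mitochondrial transcription factor gene Tfb1m fell by 2.13 on the log2 scale (adjusted p = 0.019). Ppargc1a, the coactivator known for driving mitochondrial biogenesis, was above 0 only in non-acclimated replicate 2, at 0.0279 TPM.

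Of 20 genes of adenine nucleotide balance, 10 were tested, 0 rose and 1 fell, with a median of -0.46. Ak3, a mitochondrial adenylate kinase, was that gene, with 21.2, 22.5 and 16.5 TPM at 37°C and 6.26, 6.30 and 7.52 TPM at 26°C (log2 fold change -1.45 ± 0.25, limma adjusted p = 0.011). The counts of lower genes in all 6 lists are read against the 17.4% of all tested genes that were lower, and those of higher genes against 3.30%. Under median-of-ratios scaling, 8.64% of all tested genes were higher and 9.32% lower. The counts of higher and lower genes in the lists then became 0 and 1 for upstream kinases, 3 and 1 for regulators, 1 and 1 for AMPK-related kinases, 3 and 4 for substrates, 0 and 2 for the mitochondrial list and 0 and 1 for adenine nucleotides. With the replicate block, against 6.89% higher and 29.0% lower over all genes, they were 0 and 2, 1 and 3, 1 and 2, 3 and 12, 0 and 2, and 0 and 3 in the same order. Cpt2, Gbf1 and Snrk passed in all 6 fits that left out 1 library, and the other 13 of the 16 called genes named here passed in 0 to 3 of the 6. Without the filter on low values the calls of Cab39l, Fbxo48, Sik1, Mark2, Acaca, Rptor and Tfb1m were lost, with adjusted p of 0.053 to 0.085. Acaca and Rptor also missed the threshold without replicate 3 of both conditions (adjusted p of 0.068 and 0.071). Over all genes, 345 to 600 were called lower when a replicate 1 or 2 library was left out, against 1954 with all 6 libraries, and 1820 and 2725 without non-acclimated and cold-acclimated replicate 3.

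**Figure D4:**
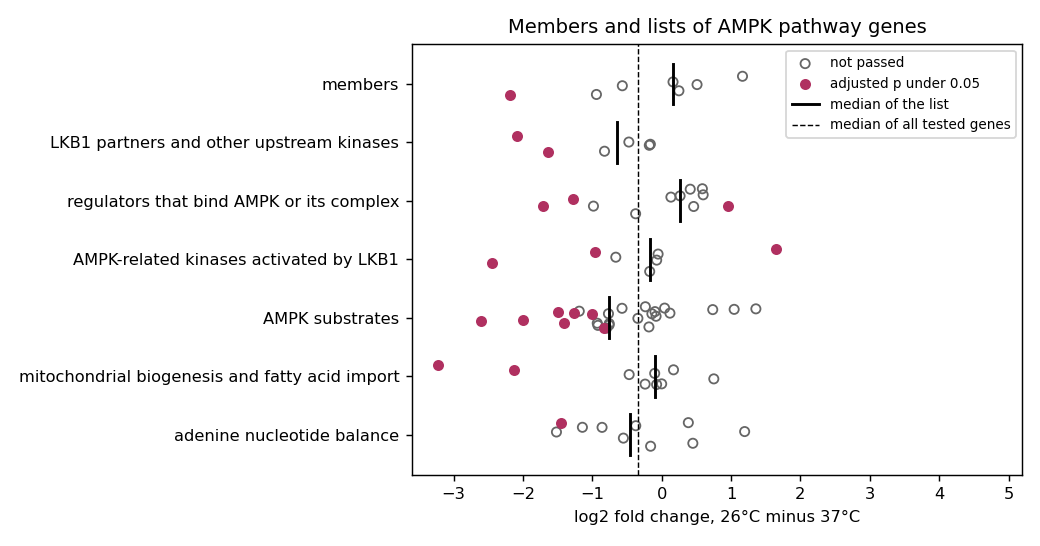
log2 fold change (horizontal axis, 26°C minus 37°C) of every tested gene of the 7 AMPK and LKB1 genes (top row, named members) and of the 6 pathway lists, with filled points for an adjusted p under 0.05, a bar for the median of each list and a dashed line for the median of all tested genes. The substrate list has its 7 filled points to the left and its median at -0.76, and filled points on the right are seen for Axin1 and Sik1 alone.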

How the data were processed

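The authors deposited TPM values for 41079 genes in 6 libraries, with gene symbols, positions and types. Per the submitters' processing notes, reads passed FastQC 0.11.7, Trimmomatic 0.38, HISAT2 2.1.0 (GRCm39) and featureCounts 1.6.3. No source used here gives the annotation release, the strand setting or the gene lengths. TPM divides counts by gene length and forces equal totals, so a change of abundant genes in either direction moves the rest the other way.

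Genes whose mean reached 1 TPM were tested with limma 3.58.1 (R 4.3.3) on log2 values of the deposited TPM + 1, with a mean-variance trend, no covariate and Benjamini-Hochberg adjustment. The thresholds were an adjusted p of 0.05 and, where stated, a log2 fold change of 1. Other values used Python 3.11.15, numpy 2.4.6 and pandas 2.3.3, and figures matplotlib 3.10.9. Reads were recovered from the spacing of a gene's TPM values (whole within 1e-06). For 2734 genes above 0 in 1 library they were not resolved. Words of 50 bases in annotated transcripts gave the overlap with other genes. The scripts were tested on simulated data.

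Deviations from the condition mean correlated at 0.48, 0.50 and 0.51 across genes for libraries of the same replicate number and at -0.41 to 0.02 otherwise, so the numbers pair the libraries. Alternatives were a pseudocount of 0.1, no filter, median-of-ratios scaling, a replicate block, both together, voom on recovered reads, and each library left out. The 8 genes, the lists and the rule for named genes were chosen with earlier results of these data known. The rule names the 8 genes, 11 fixed pathway genes (1 is not reported here), and in each list the 2 genes with the smallest p in each direction among those passing, plus the 3 genes most like Prkaa1 and Stk11. Gm15938 and Cbarp were added for overlap, and Strada for its share.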

Additional observations from a re-analysis of the deposited data

How the results depend on the processing

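Among the 7 tested AMPK and LKB1 genes, 0 were called higher and 1 lower with both thresholds. Without the filter on low values these counts were 0 and 0. They were 1 and 1 under median-of-ratios scaling, with the replicate block, with both together and with voom. They ranged from 0 to 1 in each direction when 1 library was left out. By adjusted p alone, 0 were higher and 1 lower, against 0 and 0 without the filter, 2 and 1 under median-of-ratios scaling, alone or with the replicate block, and with voom, 1 and 2 with the replicate block, and 0 to 1 in each direction leaving out 1 library. Over all genes, 321 were called higher and 1954 lower. The counts were 184 and 1121 without the filter, 840 and 1052 under median-of-ratios scaling, 1130 and 1519 with the replicate block added to it, and 792 and 1093 with voom. With the replicate block alone they were 458 and 2679, and leaving out 1 library gave 59 to 459 and 345 to 2725. Without replicate 3 of both conditions, an alternative chosen after the data were seen, 653 and 3088 genes were called, and 1 and 1 of the 7, with the same counts by adjusted p alone.

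Prkab1 turned from 0.25 to -0.26 without cold-acclimated replicate 3 (range 0.72 to -0.26 leaving out 1 library) and to -0.10 without replicate 3 of both conditions. Prkag1 turned from 0.16 to -0.02 without non-acclimated replicate 1 or 2 and to -0.21 without cold-acclimated replicate 3 (range 0.53 to -0.21). None of these values passed the test. The pseudocount of 0.1 changed no call of the 7 genes, and the replicate block brought Prkab2, Prkag2, Txnip, Tsc2 and the antisense Gm15938 (adjusted p from 0.073 to 0.028) past the threshold and changed no other call of a named gene. Counted in reads, not corrected for length, mean shares at 37°C and 26°C were 18.2 and 36.0% for Prkab2 and 8.28 and 1.79% for Cab39l, against 7.90 and 19.6% and 20.2 and 4.91% by TPM. With 3 libraries per condition, leaving out 1 mostly left fewer calls over all genes. Prkaa2 and Prkag3 stayed below what 3 reads per library can show.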
